A study of Mus musculus with 8 samples.

Results

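Chromatin accessibility at the genes of matrix proteases and their inhibitors was described in medullary thymic epithelial cells (mTECs), the cells that form the inner zone of the mouse thymus and present the body's own proteins to developing T cells. The genes were chosen by symbol alone, as those whose name in the authors' annotated table of merged peaks is Adam, Adamts, Adamtsl, Mmp or Timp followed by a number. They numbered 62 of 18215 genes and held 250 of 74090 peaks. The ADAMTS family had 19 genes and 96 peaks, the ADAM family 16 genes and 56 peaks, the MMP family 18 genes and 51 peaks, the ADAMTSL family 5 genes and 27 peaks, and the TIMP family 4 genes and 20 peaks. ATAC-seq, in which a transposase cuts accessible DNA and tags the cut ends for sequencing, was applied to thymus of C57BL/6 mice that carried no label of any mutation or treatment. After digestion with collagenase, dispase and DNase and a Percoll gradient, cells that were CD45- and Epcam+ were sorted into mTEC-I (MHCII low, Itgb4+), mTEC-II (MHCII high), mTEC-III (Ly6D+) and mTEC-IV (MHCII low, Itgb4-, L1cam+), with 2 libraries each. The labels call the cells enriched for each population, and do not give the age of the mice, whether animals were pooled or whether replicates came from separate animals. P-values therefore reflect how far these libraries vary, a spread that could be technical.

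The 5 families meet in the same task. MMPs are zinc proteases, secreted or held at the membrane, that are made as inactive precursors and cut collagens, gelatins, elastin and many other proteins once activated. ADAMs sit in the membrane and release the outer parts of neighbouring membrane proteins, such as growth factors, cytokines and Notch. ADAMTS proteases are secreted, bind the matrix through thrombospondin repeats and cut large proteoglycans, procollagens or blood proteins, while ADAMTS-like proteins share that frame but lack the protease domain. TIMPs bind the active site of MMPs and block it, and Timp3, which stays bound to matrix, also blocks several ADAMs and ADAMTSs. Accessibility is not expression: the values below count transposase cuts at peaks near these genes, and RNA was not measured in the files analysed here.

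The windows of 250 bases before the start of 6 genes are shown because a peak at the start site took part in the values given below for the first 5 of them. Adamts1, Adamts20 and Timp1 had a start-site peak that was higher in mTEC-I, Adam8 had one that was lower in mTEC-I, Adamts18 had a pair open mainly in mTEC-I that held a small part of its signal, and Adam17 is given as a comparison that did not pass the test over populations. Sequences are from RefSeq on GRCm38.p6, 5′ to 3′ on the gene's strand. RefSeq's start may lie some bases from the start in the authors' mm9 annotation.
Adamts1: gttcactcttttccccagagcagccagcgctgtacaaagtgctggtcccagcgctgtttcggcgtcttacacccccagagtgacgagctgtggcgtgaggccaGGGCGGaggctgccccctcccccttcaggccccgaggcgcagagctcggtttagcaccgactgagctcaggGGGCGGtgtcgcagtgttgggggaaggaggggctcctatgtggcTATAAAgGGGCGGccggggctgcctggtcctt
Adamts18: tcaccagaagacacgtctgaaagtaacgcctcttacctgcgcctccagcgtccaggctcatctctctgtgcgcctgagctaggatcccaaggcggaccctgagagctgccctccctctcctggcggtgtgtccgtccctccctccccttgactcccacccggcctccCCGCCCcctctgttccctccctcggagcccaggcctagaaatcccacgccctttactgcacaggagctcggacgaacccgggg
Adamts20: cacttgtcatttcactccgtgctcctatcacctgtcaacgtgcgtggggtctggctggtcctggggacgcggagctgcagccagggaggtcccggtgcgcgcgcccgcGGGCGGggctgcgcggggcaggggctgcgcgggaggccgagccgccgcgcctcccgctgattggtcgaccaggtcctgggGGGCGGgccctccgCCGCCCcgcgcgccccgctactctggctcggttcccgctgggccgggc
Timp1: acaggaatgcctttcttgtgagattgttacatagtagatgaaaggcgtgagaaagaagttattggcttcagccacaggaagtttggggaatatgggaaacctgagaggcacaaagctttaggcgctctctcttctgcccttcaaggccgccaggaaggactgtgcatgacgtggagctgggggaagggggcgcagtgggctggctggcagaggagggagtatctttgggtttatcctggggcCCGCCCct
Adam8: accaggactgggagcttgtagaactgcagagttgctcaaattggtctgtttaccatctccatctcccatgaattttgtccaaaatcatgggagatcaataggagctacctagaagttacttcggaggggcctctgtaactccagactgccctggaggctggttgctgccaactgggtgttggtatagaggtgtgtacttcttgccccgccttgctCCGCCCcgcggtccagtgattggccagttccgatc
Adam17: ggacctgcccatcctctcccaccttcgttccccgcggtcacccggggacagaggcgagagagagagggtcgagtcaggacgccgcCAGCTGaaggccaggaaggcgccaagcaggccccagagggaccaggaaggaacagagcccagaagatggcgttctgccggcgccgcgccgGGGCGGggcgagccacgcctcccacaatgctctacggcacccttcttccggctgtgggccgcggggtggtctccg
Capitals mark every match, on either strand, to 4 motifs: AP-1 (TGANTCA), the TATA box (TATAAA), the GC box (GGGCGG) and the E-box CAGCTG. Adamts1 holds a TATA box 32 bases before the start and 3 GC boxes, Adamts20 holds 3 GC boxes, and Adamts18, Timp1 and Adam8 hold 1 each. Adam17, given for comparison, also holds a GC box and an E-box. Among 44 windows of 39 member genes with a RefSeq promoter, the GC box was in 54.5% against 32.7% of all 32851 promoters, AP-1 in 13.6% against 6.75%, the E-box in 25% against 13%, and the TATA box in 15.9% against 12.4%. The AP-1 matches were in Adam19, Adam29, Mmp10, Mmp12, Mmp20 and Mmp7, and none was in the windows of the ADAMTS genes. Median GC content was 68.4% in the ADAMTS windows and 54.2% in the MMP windows, against 52.4% over all promoters. A match describes these letters and does not show that a factor binds there.

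Libraries held between 3606436.0 and 10374623.0 tags, of which 8.44% to 19.7% lay in merged peaks, the lowest share in a mTEC-III library. Values are normalized tags, that is tags per 10000000 of the library's total after scaling by TMM, and a gene's value is the sum over all peaks the authors assigned to it. A value of 10 normalized tags rests on 5.89 to 22.5 read ends depending on the library, and a value of 0 allows up to 1.33 to 5.09 normalized tags (3 read ends, counting error only). Tests were limma's, on log2(normalized tags + 1), with p adjusted over all genes or all peaks and a threshold of 0.05. Fold changes are log2 differences on that scale with their SE, and those of features at 0 depend on the added 1. Since sorted populations were measured in bulk, fewer cells with an open site and less signal per cell cannot be told apart. Of the mTEC markers used to check the sorts, 5 of 7 tested were higher in mTEC-II (5.01% of all genes). Aire, in this group, had 78.5 and 64.8 normalized tags in mTEC-II against 20 to 53.2 elsewhere. Cldn3 and Cldn4, of the same list, were instead higher in mTEC-III and mTEC-IV. The MHCII genes H2-Aa and H2-Ab1 were higher in mTEC-II and lower in mTEC-IV. In mTEC-I, sorted as MHCII low, they were not called (log2 change -0.03 and -0.02). Tuft cell genes were higher in mTEC-IV at 7 of 7 tested (17.5% of all genes). Among these, Avil and Trpm5 reached 10 normalized tags, the level needed for testing, in mTEC-IV alone, so their direction was fixed by that filter.

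As a group the protease and inhibitor genes were most accessible in mTEC-I and least in mTEC-IV. Summed over all 62 genes, accessibility was 4493.0 and 4437.5 normalized tags in mTEC-I, while mTEC-II had 3349.9 and 3346.4, mTEC-III had 3153.4 and 3318.0, and mTEC-IV had 2800.4 and 2739.9. Both libraries of mTEC-I stood above all others and both of mTEC-IV below. Of the 62 genes, 33 had their highest mean in mTEC-I (53.2%, against 28.4% of all genes) and 30 their lowest in mTEC-IV (48.4%, against 23.6% of all genes). Both mTEC-I libraries lay above the 6 others at 28 genes, as they did at 17.1% of all genes, and both mTEC-IV libraries lay below the 6 others at 16 genes, as they did at 12% of all genes.

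**Figure D1:**
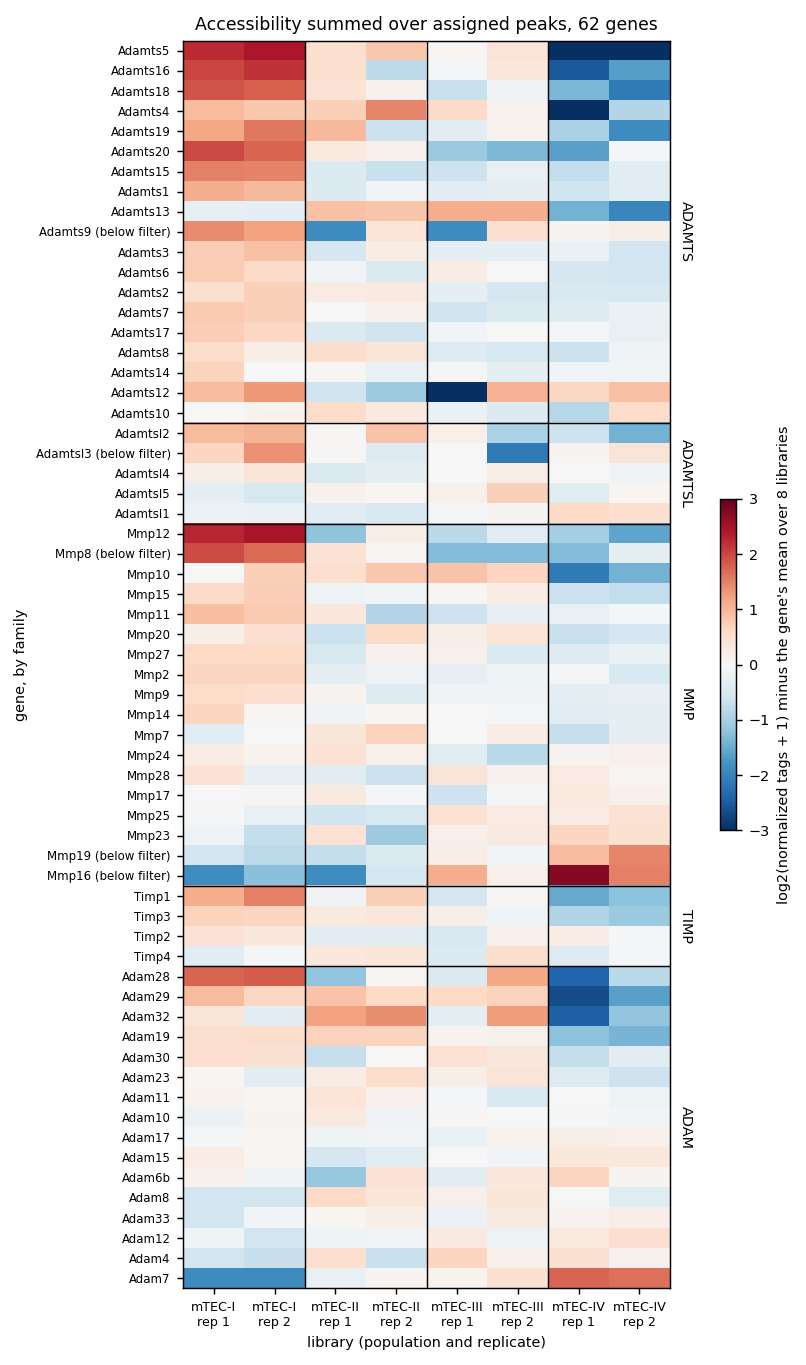
Accessibility of the 62 genes in each of the 8 libraries, as log2(normalized tags + 1) minus the gene's mean over libraries (colour), with genes in rows by family and libraries in columns from mTEC-I to mTEC-IV. Most ADAMTS and TIMP rows are high in both mTEC-I columns and low in both mTEC-IV columns, while ADAM rows point in different directions.

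Tests over all genes gave the same order. Of the 57 genes that passed the filter on low values, 37 differed over the 4 populations, where 46.6% of all genes tested did. Against the mean of the other 3 populations, 26 were higher in mTEC-I (17.1% of all genes) and 2 lower (18.6%). In mTEC-IV the count was turned round, with 2 genes higher (17.5% of all genes) and 25 lower (14.2%). Mmp12 passed the filter through mTEC-I alone, and without such genes 25 members were higher in mTEC-I (16.4% of all genes) and 24 lower in mTEC-IV (14.1%). In mTEC-II, 6 genes were higher (5.01%) and 4 lower (5.68%), and in mTEC-III 1 was higher (3.3%) and 2 were lower (4.03%). The median log2 change of the tested members was 0.49 in mTEC-I, where it was -0.05 over all genes. It was -0.41 in mTEC-IV (0.09 over all genes), -0.05 in mTEC-II (0.00) and 0.03 in mTEC-III (-0.03). With the authors' scaling to total tags, which puts the all-gene median at 0.46 in mTEC-I, at 0.21 in mTEC-II, at -0.82 in mTEC-III and at 0.16 in mTEC-IV, the calls were 8 higher and 0 lower in mTEC-II and 1 higher and 37 lower in mTEC-III. The 25 lower calls in mTEC-IV were 12 without mTEC-IV replicate 1 and 16 without mTEC-IV replicate 2.

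Summed markers of mesenchyme and endothelium were also highest in mTEC-I. Mesenchymal markers summed to 390.5 and 395.8 normalized tags in mTEC-I against 239.3 to 289.1 elsewhere, and 3 of 6 tested were higher in mTEC-I (17.1% of all genes). Of the 10 listed, Col1a2, Dcn and Lum had no peak, whereas Col1a1 had 121.4 and 126.2 in mTEC-I against 48.1 to 60.3 in the other libraries. Endothelial markers summed to 663.6 and 631.9 in mTEC-I against 423.6 to 505.7 elsewhere, with 5 of 7 higher in mTEC-I (17.1% of all genes). Kdr, 1 of these 5, had 18.2 and 17.3 in mTEC-I and at most 6.79 elsewhere. It passed the filter through mTEC-I alone, so its direction was fixed. Erg, of the same list, was lower in mTEC-I, with 99.6 and 101.4 against 105.0 to 166.2 elsewhere, and Tek was higher in both mTEC-I and mTEC-IV. Thymocyte markers summed to 298.0 and 283.1 in mTEC-I against 135.8 to 218.2 elsewhere, nearly all of it from Bcl11b, with 284.7 and 275.0 in mTEC-I. The other thymocyte genes ran differently: Lck had 0 and 0.539 in mTEC-I against 29.3 and 24 in mTEC-IV, Cd4 had 24.3 and 17.8 in mTEC-IV and at most 1.54 elsewhere, and Rag1 was at 0 in every library. The median log2 change of the 4 tested thymocyte genes was -0.94 in mTEC-I and 1.58 in mTEC-IV. It includes Cd4, which passed the filter through mTEC-IV alone. Myeloid and dendritic markers were instead lowest in mTEC-I, with 117.4 and 149.9 against 168.0 to 244.4 elsewhere. Of 4 tested, 2 were lower in mTEC-I (18.6% of all genes) and 0 higher. B cell markers summed to 46.3 and 41 in mTEC-I against 61.4 to 110.7 elsewhere, with 2 of 2 tested lower. Of these, Cd79a passed the filter through mTEC-IV alone. Neutrophil markers overlapped, at 94.6 to 134.1 over all libraries. Thymic epithelial markers summed to between 1255.5 and 1536.7 over all libraries, a sum that held opposed members. Of 8 tested, 7 differed over the populations (46.6% of all genes), 5 were higher in mTEC-I (17.1%) and 2 lower (18.6%). Krt5 had 101.4 and 104.1 in mTEC-I against 14.1 to 26.5 elsewhere, while Epcam and Krt18 were the 2 lower. The part of these other cell types in the mTEC-I results was not tested.

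Set against each other, the widest gap was that of mTEC-I to mTEC-IV. Between them 32 genes were higher in mTEC-I (17% of all genes) and 3 lower (19.9%), with a median difference of 0.83 over the tested members and -0.13 over all genes. Against mTEC-II, mTEC-I was higher at 17 genes (12.2%) and lower at 4 (11.7%), and against mTEC-III it was higher at 19 (13.5%) and lower at 4 (12.6%). No member passed the limma test between mTEC-II and mTEC-III, where 0.0851% of all genes were higher in mTEC-II and 0.386% were lower. At an unadjusted p under 0.05, 16 of 57 members differed, 10 higher and 6 lower in mTEC-II, and 13.8% of all genes did so. edgeR and DESeq2 also called 0 members after adjustment. At the unadjusted threshold edgeR had 14 of 57 (11.2% of all genes) and DESeq2 had 9 (8.07% of all genes). mTEC-II was higher than mTEC-IV at 18 genes (11.4%) and lower at 3 (13.6%), and mTEC-III was higher than mTEC-IV at 15 genes (9.95%) and lower at 3 (12.3%). The populations share libraries across these pairs.

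The calls were spread unevenly over the families. ADAMTS genes summed to 1604.4 and 1525.3 normalized tags in mTEC-I, while mTEC-II had 843.5 and 834.1, mTEC-III had 751.9 and 773.2, and mTEC-IV had 566.5 and 592.4. TIMP genes summed to 551.1 and 553.7 in mTEC-I and to 259.3 and 231.9 in mTEC-IV, with mTEC-II and mTEC-III between 370.0 and 438.6. MMP genes had a narrower range, with 994.6 and 969.4 in mTEC-I, 724.7 to 763.2 in mTEC-II and mTEC-III, and 685.8 and 666.6 in mTEC-IV. ADAM genes were near level, at 899.0 and 912.3 in mTEC-I, while mTEC-II had 999.3 and 950.5, mTEC-III had 891.0 and 934.9, and mTEC-IV had 842.3 and 820.1. By count, 12 of 18 tested ADAMTS genes were higher in mTEC-I and none lower, as were 3 of 4 TIMP genes and 7 of 15 MMP genes. Over all genes 17.1% were higher in mTEC-I and 18.6% lower. The 7 MMP genes include Mmp12, which passed the filter through mTEC-I alone. Of 16 ADAM genes 2 were higher in mTEC-I and 2 lower, and of 4 tested ADAMTSL genes 2 were higher and none lower. Lower in mTEC-IV than the mean of the other 3 populations were 11 ADAMTS, 6 ADAM, 5 MMP, 2 TIMP and 1 ADAMTSL genes (14.2% of all genes). That mean includes mTEC-I. At Adamts1, Adamts15, Adamts19, Adamts20, Mmp12 and Mmp20 the pairwise tests called mTEC-IV different from mTEC-I, but from neither mTEC-II nor mTEC-III. The median log2 change in mTEC-I was 1.12 for ADAMTS, 0.69 for TIMP, 0.46 for MMP, 0.08 for ADAMTSL and 0.00 for ADAM genes. The difference between families was not tested.

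**Figure D2:**
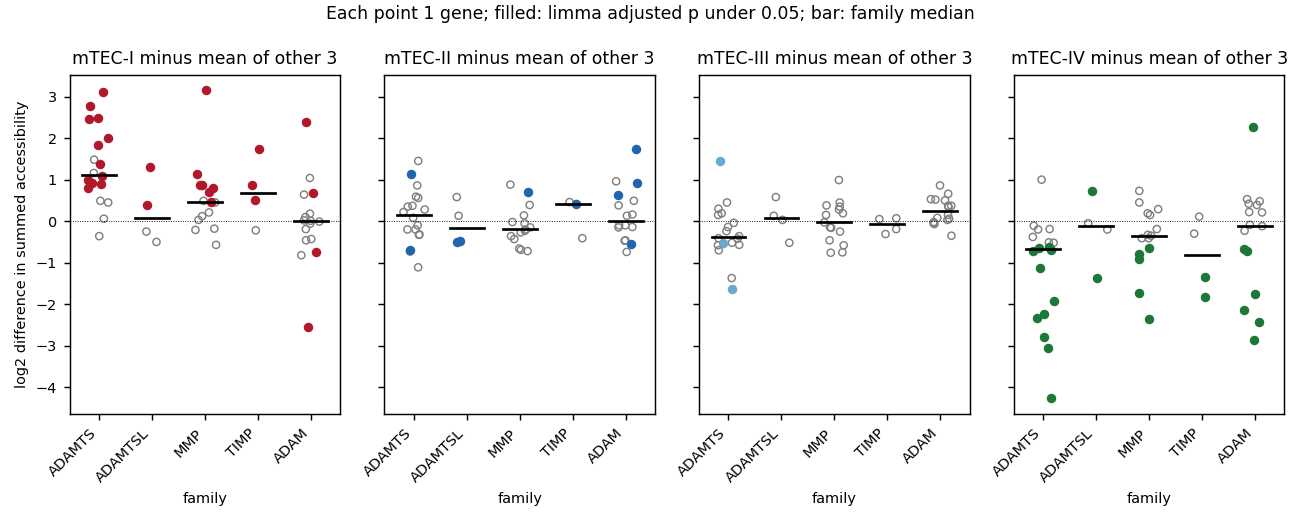
Log2 change of each tested gene in each population against the mean of the other 3, by family, in 4 panels; each point is 1 gene, filled where limma's adjusted p is under 0.05, and the bar is the family median. The ADAMTS median lies at 1.12 in mTEC-I and at -0.67 in mTEC-IV, and the ADAM medians at 0.00 and -0.11.

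Among ADAMTS proteases, those that cut proteoglycans differed over the populations at each of the 6 genes tested (46.6% of all genes), of 7 with a peak. In mTEC-I 4 were higher (17.1% of all genes) and in mTEC-IV 5 were lower (14.2%), and their summed accessibility was 554.7 and 519.2 in mTEC-I against 112.9 and 164.6 in mTEC-IV. Adamts5, an aggrecanase of mouse cartilage, had 94.7 and 108.4 normalized tags in mTEC-I, while mTEC-II had 27.7 and 34.7, mTEC-III had 20.4 and 25.6, and mTEC-IV had 1.43 and 1.04. The libraries of mTEC-I, of mTEC-II with mTEC-III, and of mTEC-IV formed 3 levels that did not overlap. The log2 change was 3.10 ± 0.312 in mTEC-I (adjusted p = 4.31e-07) and -4.26 ± 0.312 in mTEC-IV (adjusted p = 6.48e-09), and mTEC-II and mTEC-III did not differ by the test. All 3 peaks assigned to Adamts5 lie between genes, 577485 to 685137 bp before its start, which is the nearest start in the authors' annotation. The strongest, chr16:86516617-86516801 (mm9), had 67.6 and 69.0 normalized tags in mTEC-I, while mTEC-II had 24.2 and 33.1, mTEC-III had 17.0 and 22.5, and mTEC-IV had 1.43 and 1.04. That peak was called higher in mTEC-I than in each other population and lower in mTEC-IV than in each other. Whether it acts on Adamts5 was not tested.

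Adamts1, which cuts versican and is needed in ovulation, changed at its start site. The gene had 164.6 and 151.0 normalized tags in mTEC-I, while mTEC-II had 57.7 and 72.5, mTEC-III had 61.1 and 62.4, and mTEC-IV had 50 and 60.1. Both mTEC-I libraries stood above every other library, and the other 3 populations overlapped. The log2 change in mTEC-I was 1.37 ± 0.163 (adjusted p = 2.56e-06). It was also lower in mTEC-IV (-0.64 ± 0.163, adjusted p = 0.0048), a call lost without mTEC-IV replicate 1 (-0.40, adjusted p = 0.222) and with the authors' scaling (-0.57, adjusted p = 0.078). The peak over the start, chr16:85803385-85803525 (mm9), had 34.7 and 39.4 in mTEC-I, while mTEC-II had 6.92 and 12.3, mTEC-III had 11.9 and 4.09, and mTEC-IV had 5.0 and 7.31 (2.18 ± 0.441 in mTEC-I, adjusted p = 0.00159). A second peak in intron 1 of 8, chr16:85800953-85801170, was likewise called higher in mTEC-I than in each other population, with 77.4 and 64.2 in mTEC-I and 20.8 to 34.0 elsewhere. The promoter printed above for Adamts1 is the one with a TATA box.

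Adamts20, a versican-cutting enzyme whose loss gives belted mice a white band, had 81.0 and 67.9 normalized tags in mTEC-I, while mTEC-II had 24.2 and 21.6, mTEC-III had 8.49 and 7.16, and mTEC-IV had 5.72 and 18.8. The mTEC-I libraries stood alone at the top, and mTEC-III and mTEC-IV overlapped at the bottom. Its log2 change was 2.48 ± 0.366 in mTEC-I (adjusted p = 2.92e-05) and -1.64 ± 0.366 in mTEC-III (adjusted p = 0.0103), the mTEC-III call being lost without mTEC-III replicate 1 (-1.76, adjusted p = 0.0593) and after thinning to the same number of read ends in peaks (-1.38, adjusted p = 0.1). Adamts15, another proteoglycan-cutting member, had 109.0 and 106.2 normalized tags in mTEC-I and 22.1 to 31.7 in the 6 other libraries (2.0 ± 0.237, adjusted p = 2.52e-06). Adamts4, an aggrecanase like Adamts5, showed another pattern. Its 1 peak, over the start, had 0 and 6.27 in mTEC-IV, while mTEC-I had 24.5 and 22.1, mTEC-II had 20.8 and 35.5, and mTEC-III had 18.7 and 13.3. It was lower in mTEC-IV (-3.06 ± 0.533, adjusted p = 0.000153), while mTEC-I and mTEC-II overlapped and mTEC-III lay below both. Adamts9, with 1 peak, had at most 8.9 normalized tags in any library and was not tested.

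The remaining ADAMTS genes were in large part also high in mTEC-I. Adamts18, a secreted member linked to eye development in humans, held 14 peaks, the most of any member, and had 166.4 and 154.2 normalized tags in mTEC-I, while mTEC-II had 60 and 47.8, mTEC-III had 27.2 and 40.9, and mTEC-IV had 16.4 and 9.4. The mTEC-I libraries were highest and the mTEC-IV libraries lowest with no overlap (2.46 ± 0.242 in mTEC-I, adjusted p = 3.26e-07; -2.32 ± 0.242 in mTEC-IV, adjusted p = 4.6e-07). The peaks at 145 bp before and 34 bp after its start both carried 10.8 to 15.1 normalized tags in mTEC-I and at most 3.46 in any other library, so that both passed the filter through mTEC-I alone and are given with no test. Adamts16, its closest relative, had 37.8 and 43.1 in mTEC-I, while mTEC-II had 12.7 and 4.63, mTEC-III had 8.49 and 11.3, and mTEC-IV had 0.714 and 2.09. Again mTEC-I was above and mTEC-IV below every other library (2.78 ± 0.468, adjusted p = 0.000114, and -2.78 ± 0.468, adjusted p = 0.00011). Adamts17, linked to fibrillin and to short stature with eye defects in humans, had 245.5 and 227.5 in mTEC-I, while mTEC-II had 107.3 and 97.1, mTEC-III had 139.2 and 147.3, and mTEC-IV had 140.7 and 125.4. It was higher in mTEC-I (0.92 ± 0.119, adjusted p = 7.1e-06) and lower in mTEC-II (-0.69 ± 0.119, adjusted p = 0.0012), the mTEC-II call being lost with the authors' scaling (-0.47, adjusted p = 0.178). A pair of its intron peaks, chr7:74013086-74013229 in intron 3 of 22 and chr7:74069180-74069331 in intron 7 of 22, carried 15.6 to 22.6 normalized tags in mTEC-I and at most 2.31 elsewhere, and likewise passed the filter through mTEC-I alone.

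Of the enzymes that trim procollagens, Adamts2 and Adamts3 were higher in mTEC-I and Adamts14 did not pass (adjusted p of the test over populations = 0.202). Adamts2 had 108.5 and 126.7 normalized tags in mTEC-I, while mTEC-II had 91.2 and 94.8, mTEC-III had 62.8 and 54.2, and mTEC-IV had 55.7 and 55.4. The mTEC-I libraries lay highest and those of mTEC-II next, above all of mTEC-III and mTEC-IV. The gene was not called between mTEC-I and mTEC-II (adjusted p = 0.227) or between mTEC-II and mTEC-III (adjusted p = 0.133). Its lower call in mTEC-III (-0.53 ± 0.158, adjusted p = 0.0458) was lost without any single library (adjusted p 0.0558 to 0.163), while those in mTEC-I (0.80 ± 0.158, adjusted p = 0.000568) and mTEC-IV (-0.62 ± 0.158, adjusted p = 0.00448) had wider margins. Adamts7, which cuts cartilage oligomeric matrix protein, had 72.9 and 69.6 in mTEC-I and 27.2 to 46.3 in the other libraries (1.0 ± 0.214, adjusted p = 0.0011).

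Adamts13 went against its family. The enzyme, made in liver and released into blood to trim von Willebrand factor, had 98.4 and 98.2 normalized tags in mTEC-III, while mTEC-II had 84.2 and 81.7, mTEC-I had 38.3 and 36.7, and mTEC-IV had 16.4 and 11. The libraries of the 4 populations did not overlap, with mTEC-III and mTEC-II on top, though these 2 did not differ by the test. It was the 1 member called higher in mTEC-III (1.46 ± 0.214, adjusted p = 0.00109), was also higher in mTEC-II (1.14 ± 0.214, adjusted p = 0.00201) and was lower in mTEC-IV (-2.24 ± 0.214, adjusted p = 1.44e-07). The tested difference between mTEC-II and mTEC-III was not called. Nearly all of the signal came from chr2:26829544-26829822 (mm9) in intron 2 of 22, which had 95.0 and 96.1 in mTEC-III, while mTEC-II had 84.2 and 78.6, mTEC-I had 28.5 and 23.7, and mTEC-IV had 15.0 and 10.4. Adamts12 ran the other way at 1 peak: chr15:11048232-11048350 in its intron 2 of 23 had 12.1 and 14.6 in mTEC-IV and at most 5.11 elsewhere. That peak passed the filter through mTEC-IV alone and is given with no test, and the summed gene did not pass the test over populations (adjusted p = 0.081).

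**Figure D3:**
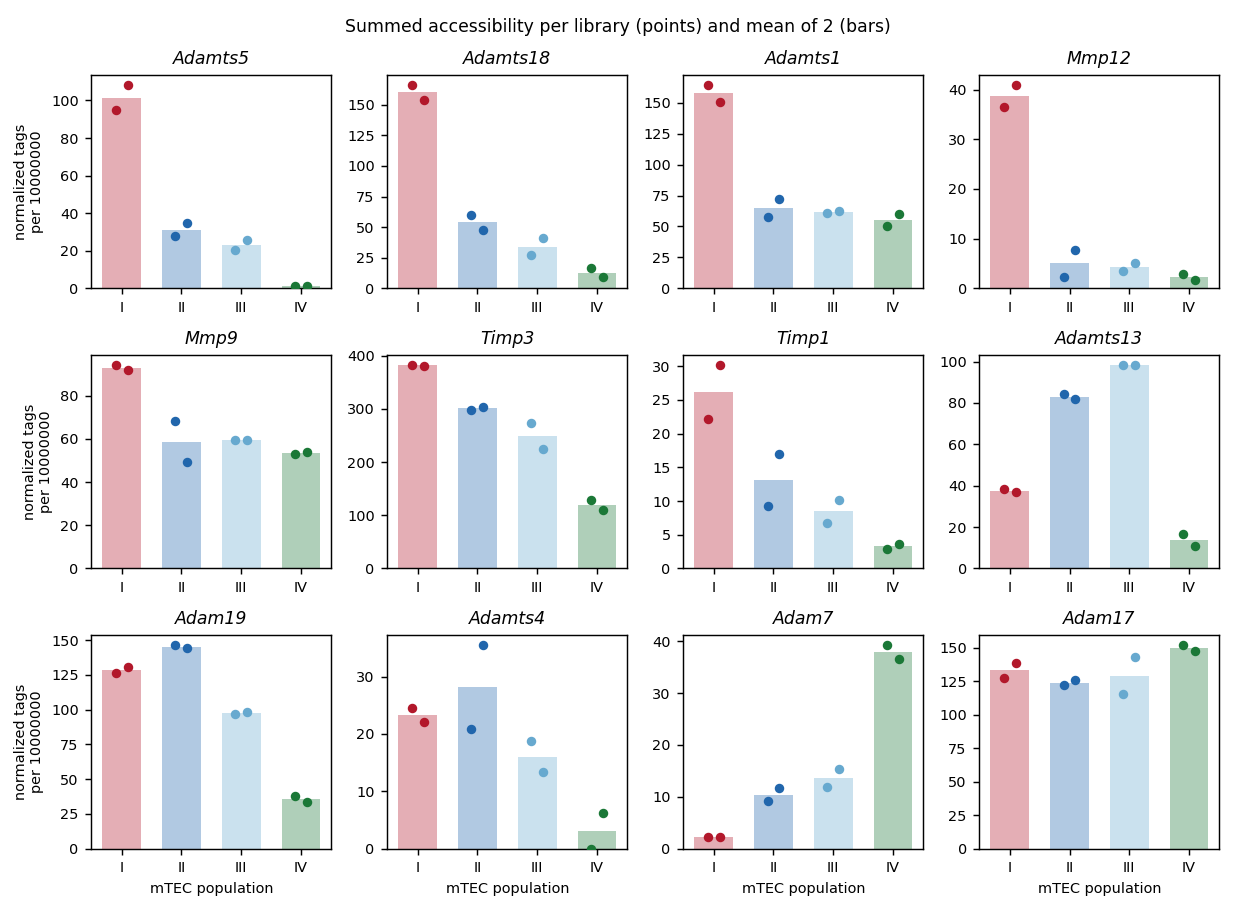
Normalized tags summed per gene for 12 genes, 1 panel each, by population; points are the 2 libraries and bars their mean, on axes that start at 0. Adamts5, Adamts18, Adamts1, Mmp12, Mmp9, Timp3 and Timp1 are highest in mTEC-I, Adamts13 in mTEC-III, Adam7 in mTEC-IV, and Adam17 did not pass the test over populations.

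The gelatinases Mmp2 and Mmp9, which cut denatured and basement membrane collagen, were both higher in mTEC-I. Mmp9 had 94.3 and 91.7 normalized tags in mTEC-I, while mTEC-II had 68.1 and 49.3, mTEC-III had 59.4 and 59.3, and mTEC-IV had 52.9 and 53.8. The mTEC-I libraries lay above all others, which overlapped or lay close together (0.70 ± 0.178, adjusted p = 0.00433). The difference was concentrated at chr2:164773121-164773288 (mm9), 515 bp before the start, with 39.6 and 36.7 in mTEC-I, while mTEC-II had 5.77 and 8.48, mTEC-III had 10.2 and 4.09, and mTEC-IV had 0.714 and 4.18 (2.79 ± 0.521, adjusted p = 0.00098). Mmp2 had 118.8 and 117.0 in mTEC-I and 54.3 to 72.9 elsewhere (0.86 ± 0.166, adjusted p = 0.000431). Its difference came from farther away: counting only peaks within 10000 bp of the start it was 0.05 (adjusted p = 0.905).

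Mmp12, macrophage elastase, had 36.5 and 41.0 normalized tags in mTEC-I, while mTEC-II had 2.31 and 7.71, mTEC-III had 3.39 and 5.11, and mTEC-IV had 2.86 and 1.57. The mTEC-I libraries were the only ones above 10, so that the gene passed the filter through them alone and its difference is given with no test. Of the membrane-type MMPs, Mmp15 was higher in mTEC-I and lower in mTEC-IV, with 151.2 and 167.1 in mTEC-I, 90.0 to 116.6 in mTEC-II and mTEC-III, and 64.3 and 60.1 in mTEC-IV (0.88 ± 0.138 in mTEC-I, adjusted p = 5.91e-05; -0.91 ± 0.138 in mTEC-IV, adjusted p = 3.5e-05). Mmp14, which with Timp2 activates the precursor of Mmp2 at the cell surface, had 133.9 and 88.4 in mTEC-I, while mTEC-II had 79.6 and 89.4, mTEC-III had 84.9 and 82.8, and mTEC-IV had 67.9 and 70.0. Here replicate 2 of mTEC-I lay within the range of mTEC-II, and the call (0.46 ± 0.166, adjusted p = 0.0346) was lost without mTEC-I replicate 1 (0.33, adjusted p = 0.333), mTEC-II replicate 1 (0.43, adjusted p = 0.0591), mTEC-IV replicate 1 (0.38, adjusted p = 0.119) or mTEC-IV replicate 2 (0.39, adjusted p = 0.107). Mmp17, Mmp24 and Mmp25, also membrane-bound, did not pass the test over populations (adjusted p 0.0763 to 0.134). Of the interstitial collagenases only Mmp8 had a peak, with 8.45 and 7.01 normalized tags in mTEC-I and at most 2.31 elsewhere, and it was not tested.

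In the MMP cluster on chromosome 9, 4 of 5 tested genes were called lower in mTEC-IV than the mean of the others (14.2% of all genes). Mmp12, 1 of the 4, passed the filter through mTEC-I alone, so its call is no independent result. At Mmp12 and Mmp20 mTEC-IV was called different from neither mTEC-II nor mTEC-III. Mmp10, a stromelysin that can activate other MMPs, had 2.14 and 4.18 normalized tags in mTEC-IV, while mTEC-I had 12.9 and 21.6, mTEC-II had 18.5 and 23.1, and mTEC-III had 23.8 and 20.5. Both mTEC-IV libraries lay below the rest, which overlapped (-2.36 ± 0.388, adjusted p = 8.64e-05). Its 1 peak covers the last exon, 10 of 10. Mmp7, matrilysin, known in the mouse gut for activating antimicrobial defensins, had 95.8 and 121.8 in mTEC-II, while mTEC-I had 60 and 73.9, mTEC-III had 74.7 and 86.9, and mTEC-IV had 45.7 and 61.1. Both mTEC-II libraries were above all others. The gene was higher in mTEC-II (0.71 ± 0.177, adjusted p = 0.0136), a call lost without mTEC-II replicate 2 (0.49, adjusted p = 0.232), mTEC-I replicate 1 (0.62, adjusted p = 0.0536) or mTEC-IV replicate 1 (0.61, adjusted p = 0.0515).

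That sum hid 4 upstream peaks, each led by a different population. The farthest, 30613 bp before the Mmp7 start in intron 8 of 9 of Mmp20, was led by mTEC-III, with 32.2 and 18.4 normalized tags in mTEC-III, while mTEC-I had 11.1 and 16.2, mTEC-II had 10.4 and 10.8, and mTEC-IV had 2.86 and 2.09 (1.61 ± 0.422 in mTEC-III, adjusted p = 0.0429). Both mTEC-IV libraries were lowest there. The next, chr9:7669932-7670204 (mm9), was highest in mTEC-IV, with 37.9 and 46.5, while mTEC-I had 5.34 and 9.17, mTEC-II had 24.2 and 29.3, and mTEC-III had 20.4 and 18.4 (1.38 ± 0.298 in mTEC-IV, adjusted p = 0.00168). Its neighbour, chr9:7670624-7670856, was led by mTEC-II, with 58.9 and 78.6, while mTEC-I had 28.5 and 22.6, mTEC-III had 18.7 and 48.1, and mTEC-IV had 2.86 and 11.5 (1.95 ± 0.401 in mTEC-II, adjusted p = 0.0117). The nearest, chr9:7678417-7678599, was led by mTEC-I, with 15.1 and 25.9 against at most 3.39 in the other libraries, and is given with no test because it passed the filter through mTEC-I alone. The 3 nearer peaks lie in introns of AV064505, an annotated transcript next to Mmp7. The adjoining pair of peaks thus had opposite extremes in mTEC-IV.

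**Figure D4:**
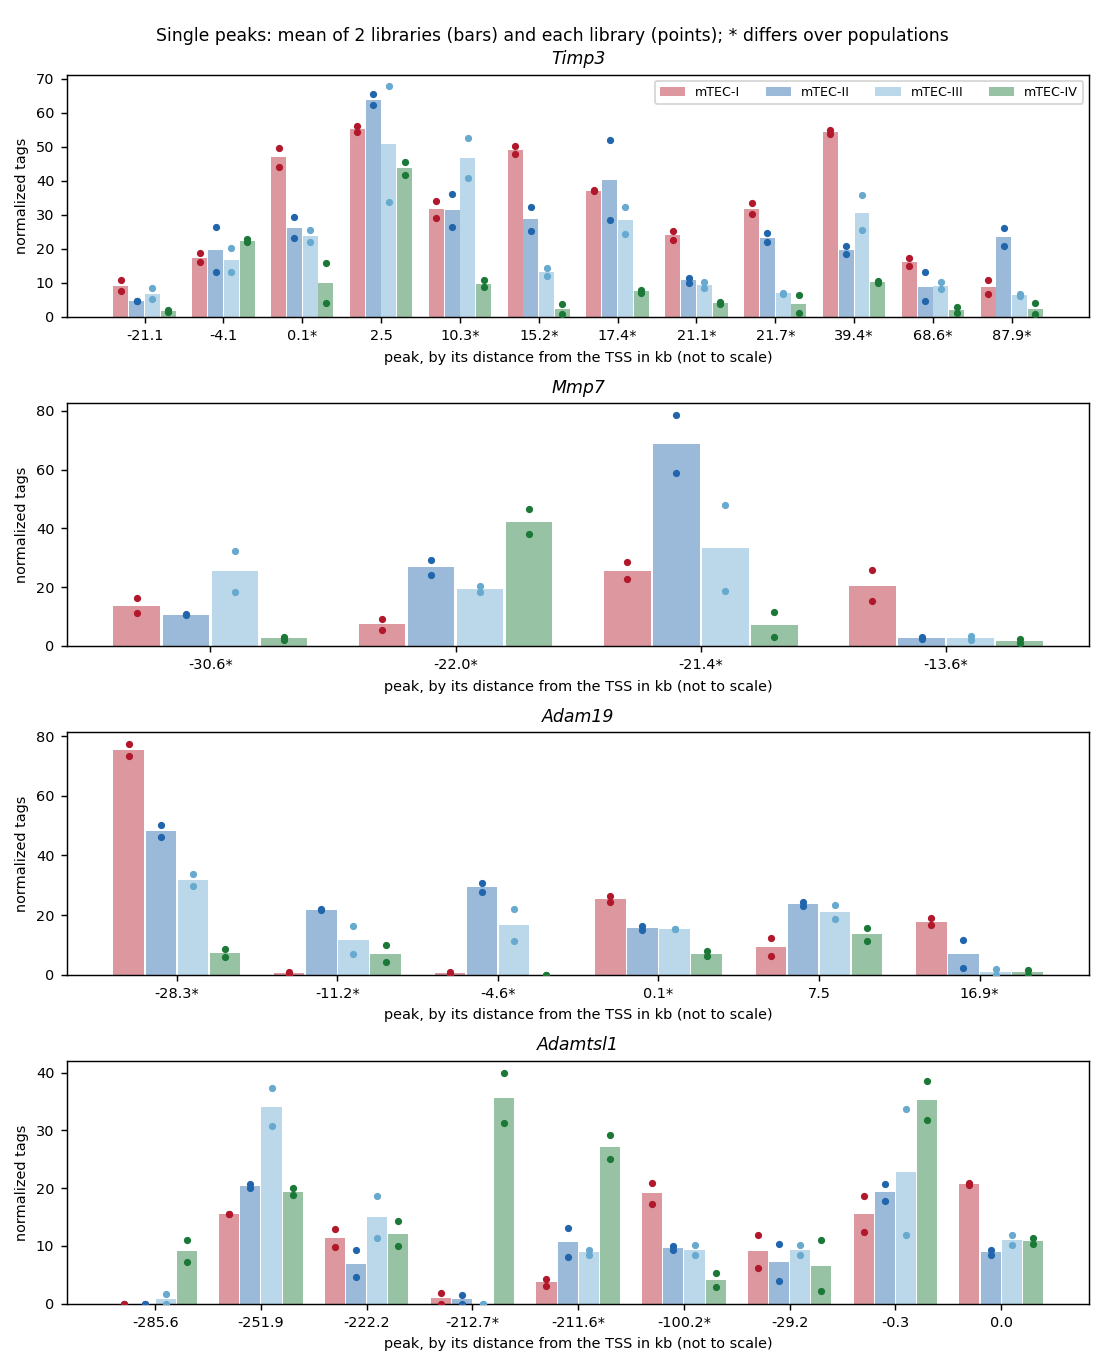
Mean normalized tags in each population at every peak assigned to Timp3, Mmp7, Adam19 and Adamtsl1, by distance to the annotated start; an asterisk marks peaks that differed over the 4 populations. The 4 Mmp7 peaks are led by 4 different populations, 9 Timp3 peaks carry an asterisk with mTEC-IV at or near the bottom, and the Adamtsl1 peak 212730 bp before the start is high in mTEC-IV, with at most 1.78 in any library of the other populations.

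Timp3, the matrix-bound inhibitor, differed at many peaks at once. It had 383.0 and 380.7 normalized tags in mTEC-I, while mTEC-II had 297.7 and 304.5, mTEC-III had 273.3 and 225.0, and mTEC-IV had 128.6 and 110.7. The 4 populations did not overlap, and the pairs I against II and II against III were those the test did not call. The log2 change was 0.88 ± 0.105 in mTEC-I (adjusted p = 2.9e-06) and -1.35 ± 0.105 in mTEC-IV (adjusted p = 1.51e-08). With only peaks within 10000 bp the mTEC-I difference was 0.40 (adjusted p = 0.0899). Its higher call in mTEC-II (0.42 ± 0.105, adjusted p = 0.0137) was lost without either mTEC-I library, either mTEC-II library or mTEC-IV replicate 2 (0.35 to 0.46, adjusted p 0.0566 to 0.139). Of 12 peaks 11 were tested and 9 differed over populations, as did 49.1% of all peaks. The largest fall in mTEC-IV was at chr10:85778276-85778479 (mm9) in intron 1 of 4, with 0.714 and 3.66 in mTEC-IV, while mTEC-I had 50.3 and 48.0, mTEC-II had 25.4 and 32.4, and mTEC-III had 11.9 and 14.3 (-3.29 ± 0.391, adjusted p = 2.36e-05). Not all peaks had the same order: one 10300 bp into the gene was highest in mTEC-III (52.6 and 40.9) and one 87866 bp away, in intron 4 of 6 of Syn3, was highest in mTEC-II (20.8 and 26.2, against 0.714 to 10.8 elsewhere). Timp3 lies inside Syn3, so that the distant peaks cannot be assigned to one gene by position alone.

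Timp1, the inducible inhibitor on the X chromosome, has 1 peak, over its start (chrX:20447166-20447431, mm9). It had 22.2 and 30.2 normalized tags in mTEC-I, while mTEC-II had 9.23 and 17.0, mTEC-III had 6.79 and 10.2, and mTEC-IV had 2.86 and 3.66. The mTEC-I and mTEC-IV libraries were at the 2 ends, with mTEC-II and mTEC-III overlapping between them. It was higher in mTEC-I (1.73 ± 0.424, adjusted p = 0.00333) and lower in mTEC-IV (-1.83 ± 0.424, adjusted p = 0.00217), calls lost without mTEC-I replicate 2 (1.66, adjusted p = 0.0858) and without mTEC-IV replicate 1 (-1.60, adjusted p = 0.0595). Timp2, which takes part in Mmp2 activation, had 116.5 and 106.8 in mTEC-I, while mTEC-II had 69.2 and 69.4, mTEC-III had 62.8 and 96.1, and mTEC-IV had 100 and 82.5. It was called higher in mTEC-I (0.50 ± 0.169, adjusted p = 0.0268), though not without mTEC-I replicate 1 (0.60, adjusted p = 0.0889), mTEC-IV replicate 1 (0.46, adjusted p = 0.0622) or mTEC-IV replicate 2 (0.37, adjusted p = 0.131). Timp4, which lies within Syn2, had 29.4 and 36.1 in mTEC-I, while mTEC-II had 46.2 and 47.8, mTEC-III had 27.2 and 53.2, and mTEC-IV had 27.9 and 35.0, with overlap throughout (adjusted p = 0.377).

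The sheddases Adam10 and Adam17, which release Notch and tumour necrosis factor among others, did not pass the test over populations. Adam10 had 177.0 and 210.8 normalized tags in mTEC-I, while mTEC-II had 244.6 and 185.0, mTEC-III had 205.4 and 198.4, and mTEC-IV had 190.0 and 189.1 (adjusted p = 0.727). Adam17 had 127.7 and 138.6 in mTEC-I, while mTEC-II had 122.3 and 125.7, mTEC-III had 115.4 and 143.2, and mTEC-IV had 152.2 and 147.8 (adjusted p = 0.424). The populations overlapped at Adam10, and at Adam17 both mTEC-IV libraries were highest by a margin that did not pass. Adam8, a sheddase of leukocytes, was low in mTEC-I, unlike most ADAMTS genes, with 41.4 and 42.6 in mTEC-I, while mTEC-II had 95.8 and 80.2, mTEC-III had 69.6 and 80.8, and mTEC-IV had 62.9 and 48.6. Both mTEC-I libraries lay below all others (-0.75 ± 0.182, adjusted p = 0.00301), a call lost with the authors' scaling (-0.24, adjusted p = 0.461) and without mTEC-I replicate 1 (-0.57, adjusted p = 0.124) or replicate 2 (-0.62, adjusted p = 0.0985). Its start-site peak, chr7:147178389-147178591 (mm9), had 18.2 and 16.7 in mTEC-I, while mTEC-II had 48.5 and 45.5, mTEC-III had 49.2 and 63.4, and mTEC-IV had 45 and 32.4 (-1.36 ± 0.223, adjusted p = 0.000451).

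Adam19, meltrin beta, known for its part in mouse heart development, was low in mTEC-IV and was open at different peaks in the others. The gene had 37.9 and 33.4 normalized tags in mTEC-IV, while mTEC-I had 126.3 and 131.0, mTEC-II had 146.6 and 144.2, and mTEC-III had 96.7 and 98.2. The libraries of the 4 populations did not overlap, and mTEC-IV was lower than the mean of the others (-1.75 ± 0.144, adjusted p = 2.75e-08), while the 3 pairs among mTEC-I, mTEC-II and mTEC-III were not called. A peak 28342 bp before the start had 77.4 and 73.3 in mTEC-I, while mTEC-II had 46.2 and 50.1, mTEC-III had 33.9 and 29.7, and mTEC-IV had 8.57 and 5.75 (1.70 ± 0.237 in mTEC-I, adjusted p = 0.000162; -2.63 ± 0.237 in mTEC-IV, adjusted p = 2.7e-06). A peak 4586 bp before the start (chr11:45863333-45863504, mm9) had 0.89 and 0 in mTEC-I, while mTEC-II had 27.7 and 30.8, mTEC-III had 22.1 and 11.3, and mTEC-IV had 0 and 0. The distal peak was thus highest in mTEC-I, where the nearer one was at or near 0 (-2.54 ± 0.545 in mTEC-I, adjusted p = 0.00227; 3.41 ± 0.545 in mTEC-II, adjusted p = 0.00548). Another, chr11:45930145-45930298 in intron 7 of 22, also had 0.89 and 0 in mTEC-I, while mTEC-II had 21.9 and 21.6, mTEC-III had 6.79 and 16.4, and mTEC-IV had 10.0 and 4.18 (-3.20 ± 0.541 in mTEC-I, adjusted p = 0.000552).

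Several other ADAM genes also differed. Adam28, a lymphocyte and epididymis sheddase, had 41.8 and 43.7 normalized tags in mTEC-I and 1.43 to 27.6 elsewhere (2.38 ± 0.5, adjusted p = 0.000949). Adam15 was lower in mTEC-II (-0.56 ± 0.171, adjusted p = 0.0422), which held in neither count test (edgeR, adjusted p = 0.0548; DESeq2, adjusted p = 0.11) and was lost without either mTEC-I, either mTEC-II or either mTEC-IV library (-0.70 to -0.44, adjusted p 0.0543 to 0.259). Of 22 ADAM genes known mainly from testis and sperm, 6 had a peak and 4 differed over the populations (46.6% of all genes). Adam7, an epididymis protein whose 3 peaks lie at least 73093 bp away, had 2.22 and 2.16 in mTEC-I, while mTEC-II had 9.23 and 11.6, mTEC-III had 11.9 and 15.3, and mTEC-IV had 39.3 and 36.6. Both ends were clear of the middle (-2.54 ± 0.39 in mTEC-I, adjusted p = 4.56e-05; 2.27 ± 0.39 in mTEC-IV, adjusted p = 0.000136). Adam29 had 0 and 1.04 in mTEC-IV, against 11.1 and 8.63 in mTEC-I and 8.48 to 10.4 in mTEC-II and mTEC-III (-2.85 ± 0.522, adjusted p = 0.000259). Adam32 was lower in mTEC-IV (0.714 and 3.13 against 6.47 to 23.9 elsewhere; -2.43 ± 0.506, adjusted p = 0.000872), a call lost without mTEC-IV replicate 1 (-1.70, adjusted p = 0.0706), and its 1 peak lies in intron 16 of 21 of Adam9.

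ADAMTS-like genes, whose products shape fibrillin and microfibrils, split. Adamtsl1 had 165.7 and 154.6 normalized tags in mTEC-IV, while mTEC-I had 97.0 and 94.9, mTEC-II had 87.7 and 79.4, and mTEC-III had 106.9 and 115.6. The mTEC-IV libraries were above the rest (0.73 ± 0.132, adjusted p = 0.000233), which makes it, with Adam7, one of the 2 members higher there. The excess sat far upstream: chr4:85487014-85487164 (mm9), 212730 bp before the start, had 40.0 and 31.3 in mTEC-IV, while mTEC-I had 1.78 and 0, mTEC-II had 0 and 1.54, and mTEC-III had 0 and 0. This peak passed the filter through mTEC-IV alone and is given with no test. Counting only peaks within 100000 bp, the difference was 0.37 (adjusted p = 0.244). Adamtsl4, with 12 peaks, had 250 and 284.1 in mTEC-I, while mTEC-II had 159.2 and 177.3, mTEC-III had 217.2 and 246.5, and mTEC-IV had 219.3 and 202.2. It was higher in mTEC-I (0.40 ± 0.107, adjusted p = 0.00606) and lower in mTEC-II (-0.48 ± 0.107, adjusted p = 0.00667), the mTEC-II call being lost without mTEC-II replicate 1 (-0.39, adjusted p = 0.114). Adamtsl2 had 44.5 and 46.9 in mTEC-I and 14.3 and 7.84 in mTEC-IV, with mTEC-II and mTEC-III between 11.3 and 41.6 (1.31 ± 0.35 in mTEC-I, adjusted p = 0.00616).

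At the level of single peaks, 181 of the 250 passed the filter, 26 of them through mTEC-I alone, 1 through mTEC-II alone and 4 through mTEC-IV alone. A peak that passed through the population where it is high had to differ, so the counts over all populations and for higher and lower calls in mTEC-I and mTEC-IV are followed by those over the 150 peaks left. Over the 4 populations 96 differed (49.1% of all peaks), a count that was 44 without mTEC-I replicate 1 and 42 without mTEC-I replicate 2. Of the 150, 67 differed (44.7%, against 40% of all peaks chosen the same way). In mTEC-I 69 were higher (18.1%) and 15 lower (19.3%), and of the 150 these were 43 (28.7%, against 12.9%) and 13 (8.67%, against 16.6%). In mTEC-IV 9 were higher (16.7%) and 55 lower (18.8%), and of the 150 these were 5 (3.33%, against 9.65%) and 43 (28.7%, against 18.4%). In mTEC-II 12 were higher (5.06%) and 2 lower (3.45%), and in mTEC-III 4 were higher (2.68%) and 4 lower (1.42%). Higher in mTEC-I than in each other population were 15 peaks (4.54% of all), at Adamts1, Adamts5, Adamts7, Adamts15, Adamts16, Adamts17, Adamts18, Adamts20, Mmp7, Mmp9 and Mmp15, of which 5 (1.55% of all) were among the 150, at Adamts1, Adamts5, Adamts7 and Mmp9. Lower in mTEC-I than in each other were 4 peaks (4.04%), at Adam7, Adam8, Adam19 and Mmp7. Lower in mTEC-IV than in each other were 15 peaks (6.21%), and higher there were 2 (7.17%), at Adamts12 and Adamtsl1, neither among the 150 (0, against 1.46% of all). No member peak stood above or below each other population in mTEC-II (0% and 0.0238% of all peaks) or mTEC-III (0.0153% and 0.00511%). By family, 38 of 59 tested ADAMTS peaks, 11 of 18 TIMP peaks, 20 of 41 ADAM peaks, 19 of 40 MMP peaks and 8 of 23 ADAMTSL peaks differed over the populations, peaks that passed through 1 population included.

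Member peaks were also set against all peaks at the same distance from a start. Within 1000 bp of a start, 21 of 44 tested member peaks differed over the populations (47.7%, against 20.6% of all such peaks), 16 were higher in mTEC-I (36.4% against 7.72%) and 11 lower in mTEC-IV (25% against 4.19%). Without peaks that passed through 1 population alone these were 18 of 40 (45% against 19.3%), 12 (30% against 6.71%) and 9 (22.5% against 4.02%). From 1000 to 10000 bp 16 of 45 differed (35.6% against 51.5%), from 10000 to 100000 bp 46 of 75 (61.3% against 60%), and beyond 100000 bp 13 of 17 (76.5% against 73.5%). In the same order, 11 (24.4% against 15.6%), 33 (44% against 21.9%) and 9 (52.9% against 33.4%) were higher in mTEC-I. Lower in mTEC-IV were 7 (15.6% against 18.8%), 30 (40% against 24.2%) and 7 (41.2% against 33.7%). These farther peaks include those that passed the filter through 1 population alone. The authors' own peak lists, called in each library alone, found 67.2% and 63.2% of the 250 peaks in the 2 libraries of mTEC-I, while mTEC-II lists found 17.2% and 29.2%, mTEC-III lists 4.4% and 15.2%, and mTEC-IV lists 21.6% and 28%. For all merged peaks these shares were 59.1% and 52.5% in mTEC-I lists, 25.3% and 37.3% in mTEC-II lists, 14.2% and 26.3% in mTEC-III lists, and 39.9% and 48.1% in mTEC-IV lists. The lists differ in length from 10525 to 44288 peaks, so that a peak missing from one may be below its depth.

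Other genes of the pathway gave mixed counts. In the plasminogen system, which activates several MMP precursors, 5 of 8 tested genes differed over the populations (46.6% of all genes), 3 were higher in mTEC-I (17.1%) and 1 lower (18.6%). Plaur, the urokinase receptor, had 32.0 and 35.6 normalized tags in mTEC-I, while mTEC-II had 1.15 and 1.54, mTEC-III had 6.79 and 4.09, and mTEC-IV had 0 and 1.57, and it too passed the filter through mTEC-I alone. Among activators and membrane regulators 9 of 14 differed, 4 higher and 3 lower in mTEC-I, with Reck, a membrane inhibitor of MMPs, lower in mTEC-IV (-0.68 ± 0.168, adjusted p = 0.00386). Of other matrix proteases and inhibitors 10 of 17 differed, 4 higher and 3 lower in mTEC-I, to be read against the same shares of all genes. Htra1, a secreted serine protease, had 256.7 and 246.9 in mTEC-I, while mTEC-II had 79.6 and 101.8, mTEC-III had 129.0 and 98.2, and mTEC-IV had 34.3 and 29.3. Among substrates, the lectican Vcan was higher in mTEC-I (0.75 ± 0.204, adjusted p = 0.00707) and lower in mTEC-IV (-1.16 ± 0.204, adjusted p = 0.000167). Of 6 tested EGF receptor ligands 2, Areg and Epgn, were lower in mTEC-I (18.6% of all genes) and higher in mTEC-IV (17.5%). The medians of the 6 were -0.21 and 0.30.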

How the data were processed

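ATAC-seq libraries of 4 sorted mTEC populations, 2 per population, were analysed. The submitters' processing notes name the mm9 build and the tools HOMER, Picard 1.108 and bcl2fastq 2.15.0.4. Which aligner was used, and whether duplicates were removed or read ends shifted, is not given in the sources used here. Each library has its own HOMER peak list, per the file headers, in which every peak carries a findPeaks score that served here only to rank peaks within a list. The authors also merged the peaks, annotated them to the nearest transcription start and deposited a signal per library in tags per 10000000 of its total tags. This deposited signal was a whole multiple of 0.5 tag for 100% of values, so read ends were recovered for count tests. The total of tags per library lay between 3606436.0 and 10374623.0.

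Signals were scaled by TMM (edgeR 4.0.16), and features with at least 10 normalized tags in at least 2 libraries were tested with limma 3.58.1 (trend) in R 4.3.3 on log2(value + 1), a fit of 1 coefficient per population over all 8 libraries. Since the table holds scaled values, limma took the place of the count test named as its alternative; edgeR and DESeq2 1.42.0 on read ends were alternatives, with other scalings, pseudocounts, filters, distances, thinning and libraries left out. P-values were adjusted by Benjamini and Hochberg over all genes or all peaks. Named genes were the 4 TIMP genes, Mmp2, Mmp9, Mmp14, Adam10, Adam17, Adamts1, up to 6 genes higher and 6 lower per population by size, and 2 per family by the test over populations; further genes were named after their values were seen. Members and lists were chosen with earlier results of these data known. The fitting scripts were tested on simulated data.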

Additional observations from a re-analysis of the deposited data

How the results depend on the processing

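Counts below are of member genes, with the range over leaving out each library in turn. The count differing over the populations, 37, was 24 with peaks within 10000 bp of the start alone and 29 to 42 with a library left out; the 96 peaks became 42 to 104, lowest without either mTEC-I library. The 26 genes higher in mTEC-I became 16 within 10000 bp and 21 to 28 with a library left out, and the 2 lower became 1 with the authors' scaling and 1 to 4 with a library left out. In mTEC-II the 6 higher became 3 after thinning to 866016 read ends in peaks per library, 3 within 10000 bp and 2 to 7 with a library left out, and the 4 lower became 0 with the authors' scaling, 2 after thinning, 1 within 10000 bp and 1 to 7. In mTEC-III the 1 higher stayed at 1 to 1, and the 2 lower became 37 with the authors' scaling, 4 with DESeq2 size factors, 1 with edgeR, 1 with DESeq2, 0 after thinning and 0 to 3 with a library left out. In mTEC-IV the 2 higher became 4 with no filter, 5 with edgeR, 0 within 10000 bp and 2 to 5, and the 25 lower became 15 within 10000 bp and 12 to 25, the 12 without mTEC-IV replicate 1. Fewer peaks are summed within 10000 bp and fewer libraries enter with one left out. The authors' scaling put the median log2 change in mTEC-III at -0.82 over all genes and -0.77 over members, against -0.03 and 0.03 with TMM. The 37 lower calls there thus came with a shift of all genes. The other causes were not tested. No named gene changed direction in any alternative that gave a value. Of 39 named calls, 39 held with DESeq2 size factors, with no filter and with pseudocount 5, 37 with edgeR and with DESeq2, 33 with the authors' scaling, 31 after thinning, 19 within 10000 bp (12 lost, the rest with no value) and 34 within 100000 bp, a distance chosen after seeing the data. The counts without features that passed the filter through 1 population alone, also chosen after seeing the data, were 36 genes and 67 peaks.

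Same-numbered libraries showed no clear shared deviation: correlations of same-numbered deviations lay between -0.0134 and 0.0325 over the pairs of populations. Such values cannot show whether the libraries were paired in the design. With the replicate number as a block, 35 genes and 98 peaks differed over the populations, 26 genes were higher and 2 lower in mTEC-I, 6 higher and 3 lower in mTEC-II, 1 higher and 1 lower in mTEC-III, and 2 higher and 25 lower in mTEC-IV, and 37 of the 39 named calls held.

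Restricting each library's own list to peaks at or above its median score, mTEC-I lists held 72 and 73 member peaks, mTEC-II lists 10 and 25, mTEC-III lists 4 and 13, and mTEC-IV lists 22 and 23. Precision is coarsest in mTEC-III replicate 1, where 8.44% of tags lie in peaks and 3 read ends are worth 5.09 normalized tags, followed by mTEC-II replicate 1, the library with the fewest tags (3.46), and with 2 libraries a population 1 library can decide a call.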
